A study of Mus musculus with 2 samples.

Results

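The Dusp, Sprouty and Spred genes and the transcription factor Etv5 form a group of 10 inhibitors and outputs of MAP kinase signaling. They were measured in siCPEB1-transfected Neuro2a cells (1 array, siRNA against the RNA-binding protein gene Cpeb1) and in siControl-transfected Neuro2a cells (1 array, control siRNA). Members were chosen by gene name (Dusp1, Dusp4, Dusp5, Dusp6, Spry1, Spry2, Spry4, Spred1, Spred2 and Etv5), and every probe set annotated with only that symbol was taken, which gave 10 of 18193 genes and 27 of 45037 probe sets on the Affymetrix Mouse Genome 430 2.0 array. Neuro2a is a mouse neuroblastoma line with features of sympathetic neurons. Both cultures received siRNA for 24 h with a lipid transfection reagent, and 100 ng of total RNA was labeled for each array. Each condition is 1 culture, so no test is possible, no p-value is given, and every ratio describes these 2 arrays. As a check of the labels, the signal of Cpeb1 itself was 38.5 in siCPEB1 and 302 in siControl (log2 ratio -2.97).

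Growth factor receptors switch on Ras, which drives the kinases RAF, MEK and ERK in turn, and ERK then raises the transcription of its own inhibitors. The Dusp members remove phosphate from ERK, JNK or p38 kinases, Sprouty proteins dampen the signal between receptor and RAF, and Spred proteins bring the Ras inhibitor neurofibromin to the plasma membrane. Because ERK activity induces many of these genes, mRNA levels of Dusp6, Sprouty genes and Etv5 are often read as a record of ERK signaling.

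Spred1 was the member with the largest difference between the arrays among probe sets bright enough to be counted, and its signal was lower in siCPEB1 at all 6 of these probe sets, by 1.46- to 3.28-fold. Dusp4 and Dusp5 were 1.34- and 1.54-fold lower in siCPEB1 at their single probe sets, whereas Dusp1 was 1.44-fold higher. Dusp6, Spry1, Spry2 and Etv5 had signals within 1.2-fold of each other on the arrays at every probe set. A probe set was counted, or passed, if its signal reached the array median on at least 1 array (21.6 in siCPEB1 and 21.0 in siControl) and the 25th percentile on the other (5.62 and 5.07). This left 22 of the 27 member probe sets, with all 10 genes represented. Fewer cells with a transcript and less of it per cell cannot be told apart in RNA from a whole culture.

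Of the 22 passing member probe sets, 3 were lower in siCPEB1 by more than 2-fold (13.6%), beside 4.04% of the 23655 passing probe sets on the array, and all 3 belong to Spred1. None was higher by more than 2-fold, beside 4.49% of all. At 1.5-fold, 7 of the 22 were lower (31.8%, beside 12.1% of all) and none was higher (beside 12.9% of all). Of these 7, 5 belong to Spred1, and the other two to Dusp5 and Spred2. Without Spred1, the 16 passing probe sets had log2 ratios of siCPEB1 over siControl from -0.85 to 0.53 with a median of -0.06. Counted as genes with 1 probe set each, the 10 members had a median log2 ratio of 0.02, beside 0.05 for 11554 genes, with 5 members above 0 and 5 below.

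**Figure D1:**
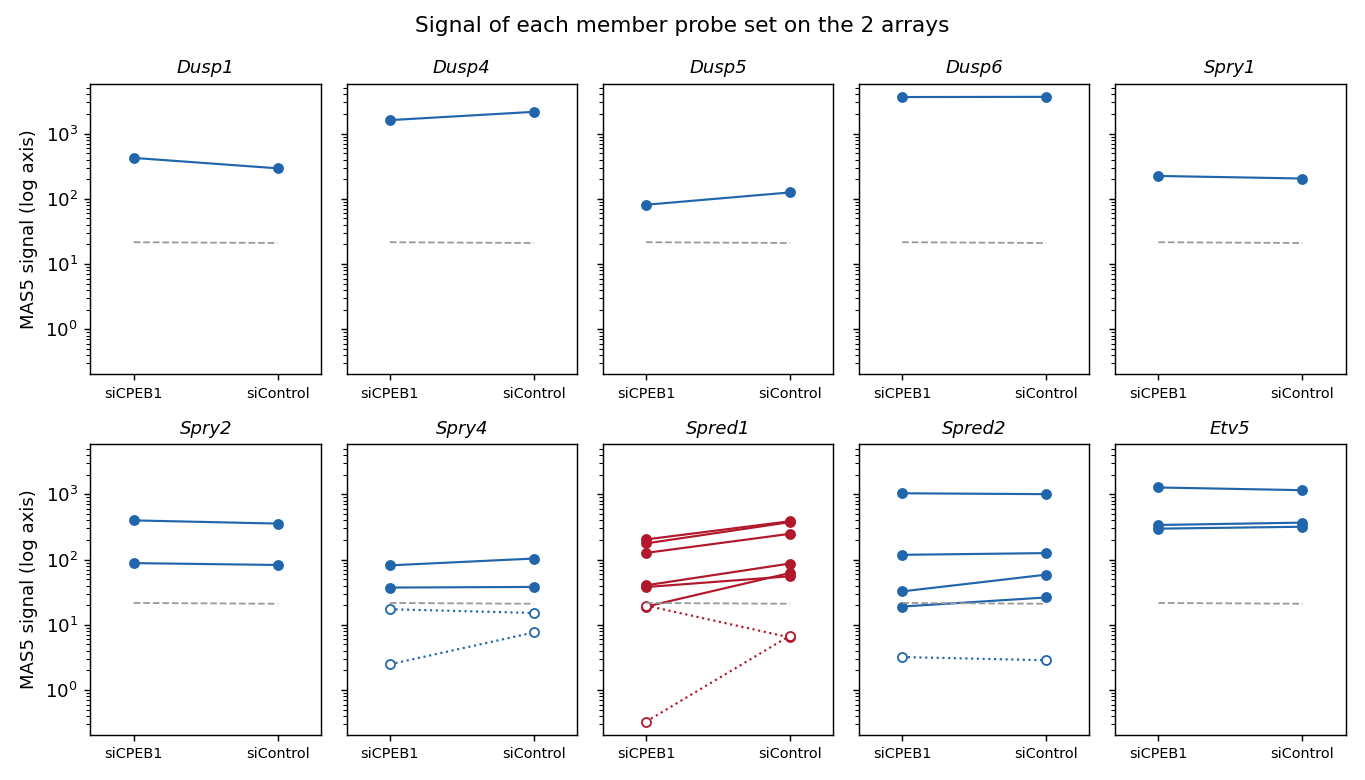
MAS5 signal (y axis, log scale) of every member probe set on the siCPEB1 array and on the siControl array (x axis), with 1 panel per gene, 1 line per probe set, open circles and dotted lines for probe sets that did not pass the signal filter, and a dashed grey line at the array median. The 6 solid Spred1 lines all lie lower on the siCPEB1 side, the lines of Dusp6, Spry1, Spry2 and Etv5 are nearly level, and Dusp1 alone among the Dusp members is visibly higher in siCPEB1.

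The 4 Dusp members are MAP kinase phosphatases with 1 probe set each, and their ratios did not share a direction. Dusp1, also called MKP-1, is a nuclear phosphatase of p38, JNK and ERK that serum or stress induces rapidly. Its signal was 424 in siCPEB1 and 294 in siControl (log2 ratio 0.53). The spread among a gene's own probe sets, an SD of the log2 ratio computed within these arrays, was 0.27 at signals like those of Dusp1, and 10.2% of passing probe sets of like signal had a ratio as high. Dusp5 is a nuclear phosphatase that acts on ERK alone. Its signal was 81.2 in siCPEB1 and 125 in siControl (log2 ratio -0.63), where the spread was 0.33 and 9.18% of passing probe sets of like signal were as low. Dusp4, or MKP-2, is also nuclear. Its signal was 1609 in siCPEB1 and 2155 in siControl (log2 ratio -0.42), where the spread was 0.21 and 12.3% were as low. These 3 ratios therefore exceeded the within-array spread, but the spread between cultures was not measured, and ratios of this size were common on the arrays. Dusp6, or MKP-3, is the cytoplasmic phosphatase of ERK and a usual marker of its activity. Its signal was 3634 in siCPEB1 and 3661 in siControl, a log2 ratio of -0.01.

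Dusp1 and Dusp5 each held a match to a response element, a different one for each gene, in the bases just before the start. Only full matches were counted, and whether these elements bear on the array ratios was not tested. The sequences are shown because both elements are classical targets of signal-regulated factors, the cAMP response element of CREB and the CArG box of serum response factor. They come from RefSeq (GRCm38.p6), run 5′ to 3′ on the strand of the gene, and capitals mark the match.
Dusp1, chr17:26508578-26508645, minus strand: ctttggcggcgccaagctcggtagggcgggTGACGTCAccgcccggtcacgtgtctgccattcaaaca
Dusp5, chr19:53529033-53529112, plus strand: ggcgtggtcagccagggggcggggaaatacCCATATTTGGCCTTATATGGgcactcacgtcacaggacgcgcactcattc
The Dusp1 match to TGACGTCA lies 143 to 136 bases before the annotated start, and the Dusp5 window holds 2 CArG boxes side by side, 82 to 63 bases before it. The search covered 250 bases before to 50 bases after each start, on both strands, in 9 promoters of 8 members; Dusp4 and Spry4 had no entry. TGACGTCA was found in 1.79% of 32851 such promoters, and a CArG box in 1.63%. Of the 9 member promoters, 1 held TGACGTCA (Dusp1), 1 a CArG box (Dusp5) and 1 the ETS core CCGGAA (Spry2), which 14.9% of all promoters hold, and none held the AP-1 site TGANTCA, which 7.81% hold. These motifs do not overlap each other in the member promoters, and a match is a description of the letters, not of a bound site.

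Spry1 and Spry2 were nearly level between the arrays, and Spry4 was 1.27-fold lower in siCPEB1 at its brightest probe set. Spry1 and Spry2 are membrane-associated inhibitors of receptor tyrosine kinase signaling. Spry1 had a signal of 224 in siCPEB1 and 205 in siControl at its only probe set (log2 ratio 0.13). Spry2 had signals of 399 in siCPEB1 and 357 in siControl at the brighter probe set, and of 88.3 in siCPEB1 and 82.8 in siControl at the other (log2 ratios 0.16 and 0.09). Spry4, which is induced by fibroblast growth factors, was dim, and 2 of its 4 probe sets passed. These had signals of 81.6 in siCPEB1 and 104 in siControl (log2 ratio -0.35), and of 37.3 in siCPEB1 and 38.1 in siControl (-0.03). The probe sets that did not pass had signals of 17.4 and 2.48 in siCPEB1, against 15.2 and 7.64 in siControl. All Spry4 signals lay at or below 104. The spread between probe sets of a gene was 0.33 and 0.43 (SD) at the signals of the passing pair. The ratio of -0.35 was about as large as the spread of 0.33 at its signal.

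Spred1 binds neurofibromin and carries it to the membrane, where it turns Ras off, and loss of SPRED1 in humans causes Legius syndrome. The gene lies on chromosome 2 of GRCm38.p6 from 117121071 to 117182279. The 8 probe sets come from 4 source sequences, so they are not independent of each other, and they share the same RNA on each array. Of the 3 probe sets built on the first source sequence, 1423160_at had a signal of 204 in siCPEB1 and 387 in siControl (log2 ratio -0.93). Probe set 1423161_s_at had 177 in siCPEB1 and 375 in siControl (-1.08), and 1423162_s_at had 37.9 in siCPEB1 and 55.6 in siControl (-0.55). The brighter pair was thus lower in siCPEB1 by 1.90- and 2.12-fold, and the dimmer one by 1.46-fold. On the next source sequence, 1452911_at had a signal of 40.3 in siCPEB1 and 87.1 in siControl (-1.11), and 1428777_at had 19.0 in siCPEB1 and 62.3 in siControl (-1.71). The siCPEB1 signal of 1428777_at was below the array median. With that signal set at the median, the probe set was at least 2.88-fold lower in siCPEB1. On the third, 1460116_s_at had a signal of 127 in siCPEB1 and 249 in siControl (-0.97).

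The 6 passing Spred1 probe sets had a median log2 ratio of -1.03, and each was below 0 by more than the spread between probe sets of a gene at its signal (SD 0.30 to 0.49). Of the probe sets of like signal on the array, between 0.93% and 14.2% had a ratio as low. Among 132 genes with at least 6 passing probe sets, 12.9% had all of them below 0, and 1.52% (2 genes, Spred1 included) had a median as low as that of Spred1, a comparison added after the Spred1 values were known. By the rule of 1 probe set per gene, Spred1 was represented by 1423160_at and was not past 2-fold. The suffix _s_at marks probes shared between transcripts, and _x_at possible cross-hybridization. Of the 6 passing probe sets, 3 end in _s_at, and without them 2 of the remaining 3 were lower by more than 2-fold. The 2 probe sets too dim to pass disagreed with each other. Probe set 1443652_x_at had 19.8 in siCPEB1 and 6.40 in siControl, and 1445228_at had 0.328 in siCPEB1 and 6.82 in siControl, all below the array medians. The 1443652_x_at probe set was built on the same source sequence as 1460116_s_at, which went the other way at a signal far above the median.

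**Figure D2:**
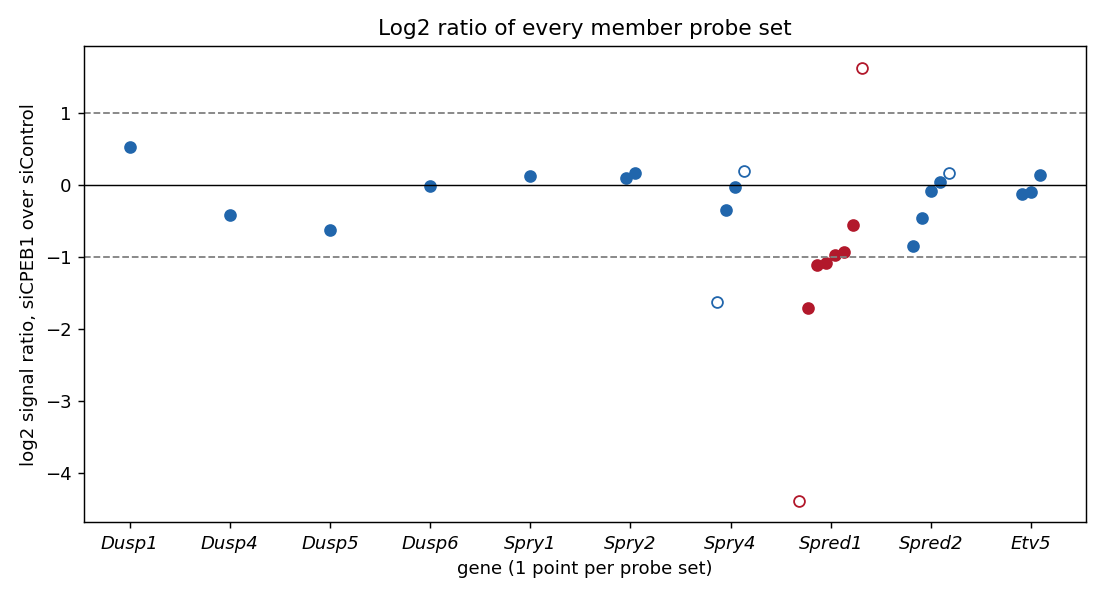
Log2 ratio of the siCPEB1 signal over the siControl signal (y axis) for each probe set of the 10 member genes (x axis), with filled circles for probe sets that passed the signal filter, open circles for those too dim, and dashed lines at 2-fold. The 6 filled Spred1 circles lie between -1.71 and -0.55, while filled circles of all other members lie between the dashed lines.

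Spred2, which also recruits neurofibromin, was not lower at its brightest probe set. Its signal there was 1039 in siCPEB1 and 1007 in siControl (log2 ratio 0.04), and at the next it was 118 in siCPEB1 and 126 in siControl (-0.09). At the dimmer passing probe sets it was 32.6 in siCPEB1 and 58.8 in siControl (-0.85), and 19.1 in siCPEB1 and 26.3 in siControl (-0.46). The ratio thus depended on the probe set, and the -0.85 came from a signal level where the spread between probe sets of a gene was 0.43. The fifth probe set, with signals of 3.21 in siCPEB1 and 2.87 in siControl, did not pass. Whether the difference between Spred1 and Spred2 exceeds that between cultures cannot be tested with 1 array per condition.

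Etv5 is an ETS transcription factor of the PEA3 subfamily and a target of fibroblast growth factor and ERK signaling. Its brightest probe set had a signal of 1275 in siCPEB1 and 1159 in siControl (log2 ratio 0.14). The other two, built on a single source sequence, had signals of 339 in siCPEB1 and 369 in siControl (-0.12), and of 298 in siCPEB1 and 319 in siControl (-0.10). All 3 ratios were smaller than the spread between probe sets of a gene at their signals.

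**Figure D3:**
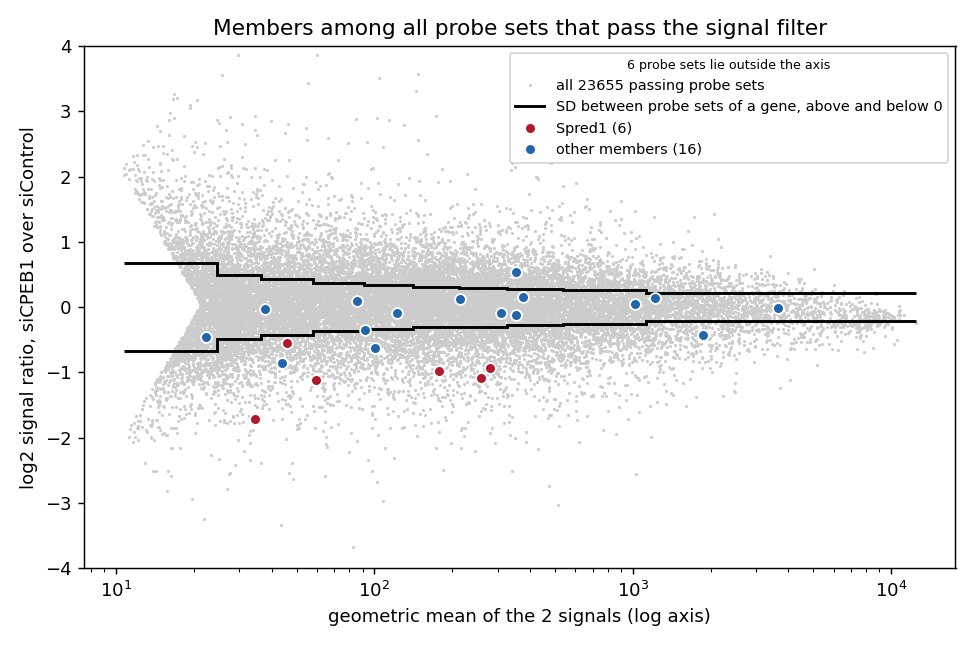
Log2 ratio of siCPEB1 over siControl (y axis) against the geometric mean of both signals (x axis, log scale) for the 23655 passing probe sets (grey), with the 6 passing Spred1 probe sets in red, the 16 of the other members in blue, and black steps at plus and minus the SD among a gene's own probe sets, computed in bins of equal size by signal. The Spred1 points all lie below the lower step, and of the blue points those of Dusp1, Dusp4, Dusp5, 1 Spry4 and 1 Spred2 probe set lie outside the steps.

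The rest of the pathway was measured with 8 lists of other genes, written for their roles, with 1 probe set per gene. Together the lists hold 92 genes, of which 81 had a probe set of their own and 69 passed. Of these 69, 3 were higher and 3 lower in siCPEB1 by more than 2-fold, beside 4.99% higher and 3.49% lower of all 11554 genes, and their median log2 ratio was -0.11.

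Among the closest relatives of the members, Dusp16, a phosphatase of JNK and p38, was past 2-fold, with a signal of 504 in siCPEB1 and 230 in siControl (log2 ratio 1.13). Its other probe set was dim, at 8.59 in siCPEB1 and 9.21 in siControl. The remaining MAP kinase phosphatases that passed, Dusp2, Dusp7, Dusp8 and Dusp10, had log2 ratios of -0.20, 0.25, 0.24 and -0.07, and the 3 probe sets of Dusp9 were too dim to pass. Spred3, with a signal of 39.4 in siCPEB1 and 60.4 in siControl, had a log2 ratio of -0.62. Spry3 had signals of 13.7 in siCPEB1 and 21.9 in siControl (-0.67), and with the dim signal set at the array median this was at least 1.01-fold lower. Both are single probe sets at signals where the spread is wide. Of 6 other ETS factors, none was past 2-fold. Etv4, the PEA3 relative of Etv5, had log2 ratios of -0.35 and -0.33 at its 2 probe sets, and Ets2 had one of -0.44. Ets1, Elk1 and Elk4 had 0.02, -0.11 and 0.37, and Elk3 had -0.76 at its brightest probe set but -0.11 and 0.01 at other passing ones.

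The core of the cascade stayed within 2-fold at the probe sets chosen. Of 12 measured genes from Sos1 and Grb2 through Nras, Braf and Araf to Map2k1, Map2k2 and Rps6ka3, none was past 2-fold, the log2 ratios lay between -0.60 and 0.41, and the median was 0.06. The passing probe sets of Braf disagreed. The one chosen had a log2 ratio of 0.41, and the others had 0.42, 0.18, -0.35, -0.44, -0.67 and -1.18. The lowest of these was dim, with 11.5 in siCPEB1 and 26.2 in siControl, at least 1.21-fold lower with the dim signal at the array median. Of 12 other feedback inhibitors of Ras and ERK, none was past 2-fold (median -0.14), with 5 above 0 and 7 below. The highest was Il17rd, also called Sef, with a signal of 182 in siCPEB1 and 101 in siControl (log2 ratio 0.85). The lowest was Pebp1, with 1630 in siCPEB1 and 2481 in siControl (-0.61). Sh2b3 had a log2 ratio of -0.60 at the probe set chosen and of -0.96 at its other one. Of 11 measured genes that ERK commonly induces, 1 was higher and 1 lower (median -0.19). Fos, an immediate early transcription factor, had a signal of 728 in siCPEB1 and 158 in siControl (log2 ratio 2.20). Egr3, another immediate early factor, had 20.6 in siCPEB1 and 58.2 in siControl, which was at least 2.69-fold lower with the dim signal at the array median, and its other probe set had 22.3 in siCPEB1 and 37.1 in siControl. The induced genes therefore did not share a direction.

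Of 8 JNK and p38 pathway kinases, the representative probe set of 1 was past 2-fold. Mapk10, the neuronal JNK3, had a signal of 297 in siCPEB1 and 134 in siControl (log2 ratio 1.15), and 459 in siCPEB1 and 131 in siControl at another probe set. Mapk8, or JNK1, had a log2 ratio of -0.52 at the probe set chosen, and of 3 other passing ones the lowest had 30.2 in siCPEB1 and 65.5 in siControl (-1.12). Of 13 receptor tyrosine kinases, by their representative probe sets, none was higher and 2 were lower past 2-fold (median -0.38, but 0.09 with no signal filter). Erbb3, a neuregulin receptor, had a signal of 57.8 in siCPEB1 and 165 in siControl (log2 ratio -1.51), and Pdgfrb, a receptor of platelet-derived growth factor, had 26.9 in siCPEB1 and 97.1 in siControl (-1.85). Among the receptors that signal through this cascade in sympathetic cells, Ret had a log2 ratio of 0.96 with signals of 2372 in siCPEB1 and 1221 in siControl, and Alk had one of 0.06. The probe sets of Egfr, the epidermal growth factor receptor, disagreed. The one chosen had 103 in siCPEB1 and 145 in siControl (-0.50), whereas 2 dim ones had 38.9 and 29.1 in siCPEB1, against 14.9 and 9.05 in siControl, which was at least 1.85- and 1.38-fold higher with the dim signal at the array median.

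**Figure D4:**
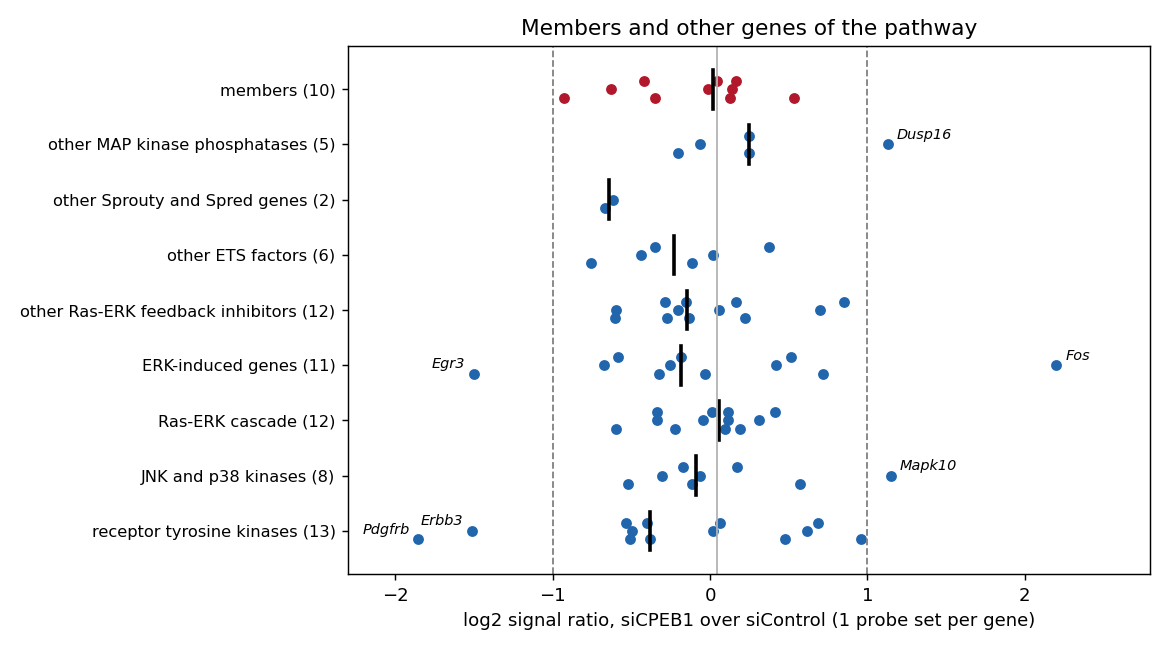
Log2 ratio of siCPEB1 over siControl (x axis, 1 probe set per gene) for the 10 members (red) and the genes of 8 pathway lists (blue; rows, with the number measured in parentheses), with black bars at each list's median, dashed lines at 2-fold and a grey line at the median of all genes. The members lie between the dashed lines, with Dusp16, Fos and Mapk10 above 2-fold and Egr3, Erbb3 and Pdgfrb below it among the other genes.

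Markers of the labeled cell type moved with the condition. Of 14 markers of sympathetic neuroblastoma, 12 had a probe set of their own and 11 passed. Of these 11, 9 were above 0, beside 6213 of all 11554 genes. By more than 2-fold, 6 of the 11 were higher in siCPEB1, beside 4.99% of all genes. One of the 6 was Gata3, with a signal of 172 in siCPEB1 and 46.0 in siControl. The 2 markers below 0 were Gata2 (log2 ratio -0.49) and Stmn2 (-0.30). The summed signal of the list was 16370 in siCPEB1 and 11721 in siControl, and none of its genes was listed at 0. Th, the enzyme that starts catecholamine synthesis, was below the array medians (17.9 in siCPEB1 and 18.6 in siControl). Of the fibroblast markers, Col1a2, a chain of type I collagen, had a signal of 309 in siCPEB1 and 42.3 in siControl, 7.31-fold higher, and another probe set had 113 in siCPEB1 and 7.75 in siControl. The brightest probe sets of 7 fibroblast markers, with Col1a2 among them, summed to 398 in siCPEB1 and 109 in siControl. Only 2 of these 7 passed, Col1a2 and Pdgfra (39.8 in siCPEB1 and 25.9 in siControl). Lum (3.26 in siCPEB1 and 6.32 in siControl) and Thy1 (8.58 in siCPEB1 and 15.4 in siControl) were too dim to pass and were lower in siCPEB1. Those of 5 haematopoietic markers, of which 2 passed, summed to 81.6 in siCPEB1 and 67.4 in siControl. For 4 endothelial markers, of which 1 passed, the sum was 107 in siCPEB1 and 67.2 in siControl. For 4 glial markers, none of which passed, it was 70.7 in siCPEB1 and 43.8 in siControl. The part of these changes in the ratios of Spred1, Dusp1, Dusp4 and Dusp5 was not tested.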

How the data were processed

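Total RNA of siCPEB1- and siControl-transfected Neuro2a cells was hybridized to 1 array each. Affymetrix Expression Console and its MAS5 method, named in the submitters' processing notes, gave the values that the authors deposited, 1 linear intensity per probe set. This method removes background and scales whole arrays, to a target not given in the sources used here, so only relative signals can be compared. The deposited siCPEB1 signal was divided by the deposited siControl signal with no further scaling, and the log2 of this ratio was used. Control probe sets (64) were left out. Because no detection flags were used, a signal filter stood in their place. Gene symbols of the platform annotation were brought to RefSeq names (GRCm38.p6) by gene identifier: 34945 probe sets had 1 symbol, 932 several and 9160 none listed. For a gene, the brightest passing probe set not ending in _x_at or _s_at was preferred. The spread is the SD of log2 ratios around the mean of their gene (5531 genes with at least 2 passing probe sets, pooled SD 0.37), also computed in 10 bins of signal. It holds real differences between transcripts and none between cultures. Members and lists were chosen with earlier results of these data known. All member probe sets are given, with the close relatives, and of each list the genes past 2-fold. Il17rd, Pebp1, Sh2b3, Ret, Alk, Egfr, Mapk8, Braf, Gata3, Gata2, Stmn2, Th, Col1a2, Pdgfra, Lum and Thy1 were added after their values were seen. The calculations were run on simulated arrays with planted changes past the 2-fold threshold and noise smaller than the pooled SD. That run does not bear on ratios below 2-fold. With 1 array per condition, their number limits the precision. Python 3.11.15 was used with numpy 2.4.6, pandas 2.3.3, statsmodels 0.14.6 and matplotlib 3.10.9.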

Additional observations from a re-analysis of the deposited data

How the results depend on the processing

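Other scalings (the median or 75th percentile of the arrays set equal, quantile or loess normalization) moved member probe sets by at most 0.083 on the log2 scale. Under these scalings, 3 or 4 member probe sets, all of Spred1, stayed past 2-fold lower. Over the array, 963 to 984 probe sets were then higher and 1032 to 1074 lower. The median of the member genes lay between -0.11 and 0.07 over all alternatives, so its sign depends on the setting. With 16 added to both signals, 2 member probe sets were past 2-fold lower, 1428777_at of Spred1 came to -1.16, and 450 probe sets of the array were higher and 460 lower. Without probe sets ending in _x_at or _s_at, 2 member probe sets were lower, both of Spred1. Over the array, 953 probe sets were then higher and 826 lower. With the median required on both arrays, 2 member probe sets were lower, and 551 probe sets were higher and 596 lower over the array. With the 25th percentile required on both, 1 member probe set, 1443652_x_at of Spred1, counted as higher and 3 as lower. Over the array, 1549 probe sets were then higher and 1255 lower. With no filter, 1 member probe set was higher and 5 were lower, 6405 and 5326 were so over the array, and 7 and 6 genes of the pathway lists. At 1.5-fold, 7 member probe sets were lower, and 3063 probe sets were higher and 2869 lower over the array. The median of the receptor tyrosine kinases was 0.09 with no filter and 0.02 with the 25th percentile required on both arrays. Over the scalings and the added constant, the passing Spred1 probe sets lay between -1.77 and -0.41, Dusp1 between 0.49 and 0.53, Dusp4 between -0.46 and -0.37, and Dusp5 between -0.68 and -0.54. The cause of these shifts was not tested, apart from the filters, which by construction admit or drop dim probe sets. No paired analysis was possible because each condition has 1 array. Signal over background limits ratios in which a signal lies below the array median, as for 1428777_at of Spred1, 1 Spred2 probe set and Spry3.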
